A study of Mus musculus with 6 samples.

Results

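Interferon-induced PARP and Phf11 genes were examined in the mouse heart: the ADP-ribosyltransferase genes Parp9, Parp10, Parp12 and Parp14, the ubiquitin ligase gene Dtx3l, and the PHD finger genes Phf11a and Phf11d. They were taken as all array probes whose RefSeq accession maps to one of these symbols, which gave 8 probes for 7 genes, of 14555 named genes measured. The 7 genes were selected on their signal difference between sleep fragmented and control hearts on these same arrays, so that difference is described here and not tested. Total RNA from the cardiac ventricles of female C57BL/6N mice, 21 weeks old, had been hybridised to 1-colour Agilent expression arrays. One group had undergone sleep fragmentation, repeated interruption of sleep, for 5 weeks (3 arrays), and the control group had slept without disturbance (3 arrays). All mice were of this 1 inbred strain, sex and age. Nothing in the labels says that the arrays of a group came from separate animals, and the p-values given below then reflect only how much these arrays varied, which may be technical.

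PARP enzymes transfer ADP-ribose from NAD+ to proteins. Parp9, Parp10, Parp12 and Parp14 belong to the branch that adds single units or, for Parp9, was long held inactive, and type I and type II interferon raise their transcripts through STAT and IRF factors. The Parp9 protein pairs with Dtx3l, an E3 ubiquitin ligase, in a complex that in human cells strengthens interferon responses. The Phf11 proteins carry a PHD-type zinc finger, and the mouse genome holds several copies of the gene side by side.

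Of 39429 probes, the scanner software called 59.2% to 72.6% well above background per array, least on sleep fragmented replicate 1. The 75th percentile of signal was 127 on that array and lay between 212 and 262 on the other 5 arrays. Values are therefore given as relative signal, a probe's signal divided by the 75th percentile of its own array, and compare arrays for 1 probe, never 2 probes with each other. In the file headers the arrays of each group share 1 scan date entry, which differs between the groups. Scan date and group therefore cannot be told apart for any difference below. Cardiomyocyte markers were bright on every array, with a summed relative signal of 569 to 968 in sleep fragmented and 559 to 691 in control hearts. Atrial markers were bright on some arrays of both groups (31.5 to 282 in sleep fragmented and 14.7 to 202 in control hearts), highest on replicate 2 of each, although the labels name ventricles. The comparison kept a probe if all arrays of either group had it well above background. All 8 probes were kept, 7 of them with that call on all 6 arrays.

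All 7 genes had a lower mean in sleep fragmented than in control hearts. The log2 fold change, sleep fragmented over control, was negative for all 7, as for 40.6% of all named genes, and ran from -1.29 for Phf11a to -0.32 for Dtx3l, with a median of -0.64 against 0.06 over all named genes. In 6 of the 7, all but Dtx3l, the highest sleep fragmented array was under the lowest control array, which held for 3.95% of all named genes. In 5 of the 7 the difference was also at least 1.5-fold, against 0.632% of all named genes. As the genes were picked for this contrast, nothing is read from these counts. By limma with Benjamini-Hochberg adjustment 0 of 25229 probes (0%) passed an adjusted p of 0.05, while 683 (2.71%) had an unadjusted p under 0.05, and 0.650% had that and were at least 1.5-fold lower. The count of 5 fell to 3 without sleep fragmented replicate 3, where Parp9 stood at -0.58 and Parp12 at -0.50, and to 3 without control replicate 2, where they stood at -0.45 and -0.51.

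**Figure D1:**
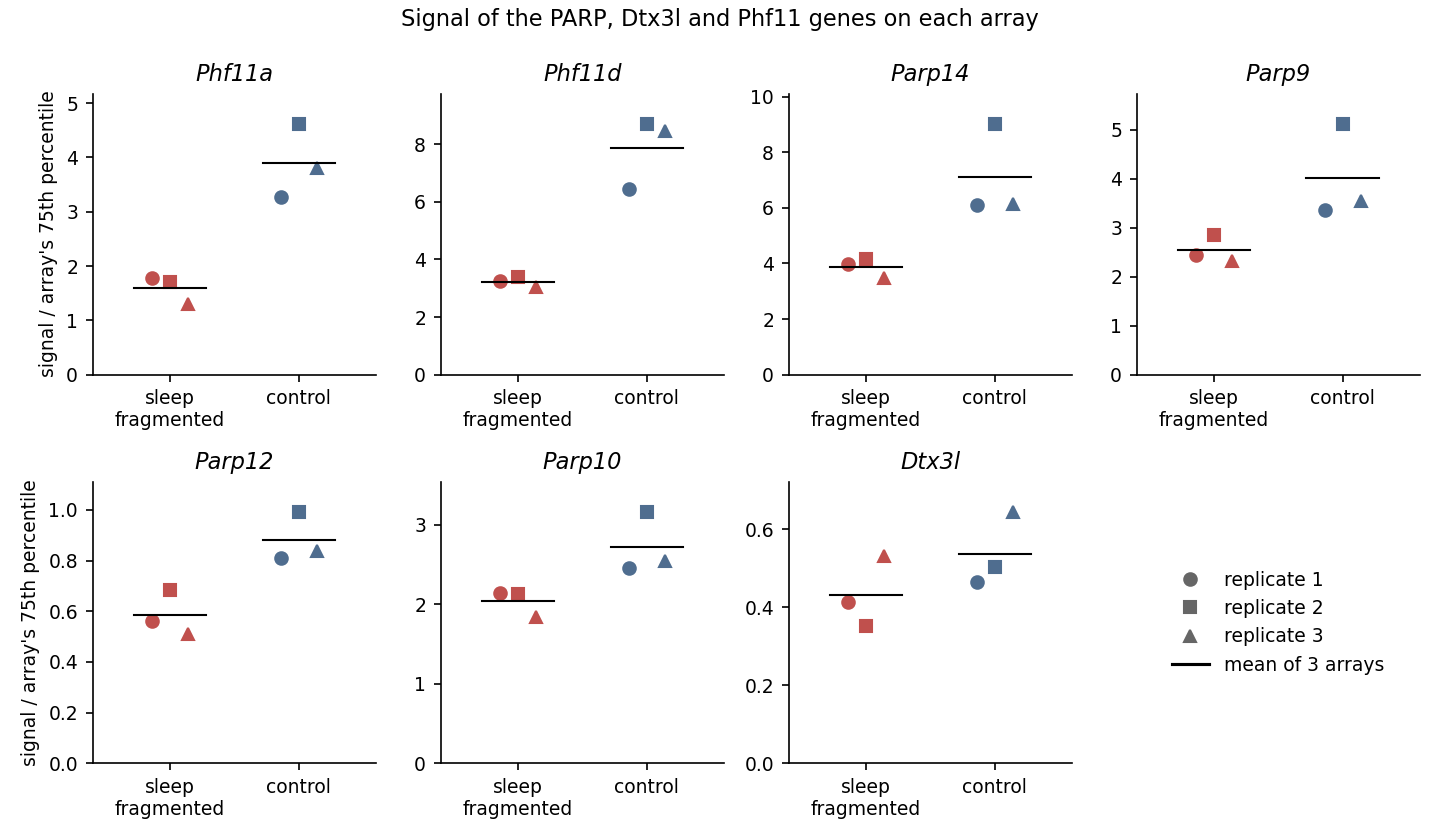
Relative signal (signal divided by the array's 75th percentile, linear axes from 0) of the 7 genes on each array, with sleep fragmented arrays in red on the left, control arrays in blue on the right, a symbol per replicate number and a line at the mean of 3 arrays. The groups do not overlap for 6 genes and overlap for Dtx3l, and control replicate 2 is the highest array for all but Dtx3l.

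Phf11a and Phf11d, 2 of the Phf11 copies on chromosome 14, had the largest differences among the 7. Phf11a (probe A_51_P262515) had relative signals of 1.78, 1.70 and 1.30 on the sleep fragmented arrays, against 3.28, 4.62 and 3.81 on the control arrays. On the log2 scale it averaged 0.66 ± 0.25 in sleep fragmented and 1.95 ± 0.25 in control hearts (SD, n = 3 each), which is 2.45-fold lower (log2 fold change -1.29 ± 0.21, moderated SE). Phf11d (A_55_P2015687) had relative signals of 3.24, 3.39 and 3.04 on the sleep fragmented arrays, against 6.44, 8.71 and 8.47 on the control arrays. The 3 sleep fragmented arrays lay closer together than the controls, with log2 means of 1.69 ± 0.08 in sleep fragmented and 2.96 ± 0.24 in control hearts (SD, n = 3 each), and the gene was 2.42-fold lower (-1.28 ± 0.19). The gap between the lowest control and the highest sleep fragmented array was 0.88 for Phf11a and 0.93 for Phf11d on the log2 scale, wider than any range within a group of either gene.

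The other copies in the cluster, which are not among the 7, gave unlike values. Phf11b, which lies between Phf11a and Phf11d, had log2 relative signals of -1.17, -0.92 and -1.44 on the sleep fragmented arrays, against -0.41, 0.62 and -0.01 on the control arrays. Its groups did not overlap, and it was 2.36-fold lower (-1.24 ± 0.28), with an adjusted p of 0.949 by limma over all probes, so it did not pass. Phf11c, on the far side of Phf11d, was dim and had a log2 fold change of 0.02 ± 0.27. The copies resemble each other and the files hold no probe sequences, so which copy each Phf11 probe binds was not tested, and the values of Phf11a, Phf11b and Phf11d are uncertain as separate readings.

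How alike these copies are upstream is seen in their promoter windows, 300 bases around the annotated start, from RefSeq on build GRCm38.p6, minus strand: chr14:59297473-59297772 for Phf11a, chr14:59341281-59341580 for Phf11b and chr14:59365441-59365740 for Phf11d. They are printed 5′ to 3′ with capitals on a repeat of GAAA, with 2 bases between the blocks in Phf11a and Phf11b and 1 base in Phf11d.
Phf11a: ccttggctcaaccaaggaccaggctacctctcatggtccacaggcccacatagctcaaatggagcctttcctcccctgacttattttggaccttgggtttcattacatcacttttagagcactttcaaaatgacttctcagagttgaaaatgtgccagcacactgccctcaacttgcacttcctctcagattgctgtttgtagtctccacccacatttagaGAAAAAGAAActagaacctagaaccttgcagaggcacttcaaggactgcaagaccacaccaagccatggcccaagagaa
Phf11b: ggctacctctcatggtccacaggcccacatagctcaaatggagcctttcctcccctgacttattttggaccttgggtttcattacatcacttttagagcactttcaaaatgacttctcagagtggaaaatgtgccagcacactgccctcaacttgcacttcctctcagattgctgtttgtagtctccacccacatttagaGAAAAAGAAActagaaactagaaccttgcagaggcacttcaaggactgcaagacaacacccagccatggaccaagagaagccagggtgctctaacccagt
Phf11d: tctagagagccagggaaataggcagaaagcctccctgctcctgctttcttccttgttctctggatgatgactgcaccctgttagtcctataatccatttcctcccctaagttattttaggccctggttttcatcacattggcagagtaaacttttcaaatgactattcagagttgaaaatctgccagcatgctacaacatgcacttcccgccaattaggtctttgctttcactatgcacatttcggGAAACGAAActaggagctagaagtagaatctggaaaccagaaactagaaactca
Phf11a and Phf11b shared 274 of 279 aligned bases (98.2%), while Phf11a and Phf11d shared 173 of 246 (70.3%). The core of the interferon-stimulated response element (GAAA, any 2 bases, GAAA, on either strand) matched once in Phf11a, at bases 222 to 231 of the window, and once in Phf11b, at bases 201 to 210. It was found in 3.44% of 32851 promoter windows of 300 bases. Phf11d held no such match but a repeat with 1 base between the GAAA blocks (bases 247 to 255, no overlap with the first motif), a pattern searched after its sequence was seen and present in 3.17% of windows. Of the other genes, Parp12 and Dtx3l had a window and neither motif matched there, and the gamma-activated site TTCNNNGAA, found in 8.3% of windows, matched in 0 of the 4 windows of the 7 genes. A match is a description of letters, not of a bound site.

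Parp14, Dtx3l and Parp9 lie next to each other on chromosome 16, and they differed in size of change. Parp14, a large macrodomain enzyme known in mouse B cells as a cofactor of Stat6 (A_51_P514712), had relative signals of 3.99, 4.16 and 3.47 on the sleep fragmented arrays, against 6.10, 9.03 and 6.14 on the control arrays. It was 1.80-fold lower (log2 fold change -0.85 ± 0.21), and control replicate 2 stood above the other 2 controls. Parp9, the macrodomain partner of Dtx3l (A_55_P2142863), had relative signals of 2.43, 2.86 and 2.33 on the sleep fragmented arrays, against 3.36, 5.12 and 3.54 on the control arrays. It was 1.56-fold lower (-0.64 ± 0.22), with log2 means of 1.34 ± 0.16 in sleep fragmented and 1.98 ± 0.33 in control hearts (SD, n = 3 each). The groups did not overlap, but the gap between them was 0.23 on the log2 scale, less than the SD of the controls. With array weights Parp9 stood at -0.545, under the 1.5-fold mark.

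Dtx3l, whose RefSeq span overlaps that of Parp9, was the exception. Its brighter probe (A_55_P2059154) had relative signals of 0.413, 0.351 and 0.530 on the sleep fragmented arrays, against 0.463, 0.503 and 0.644 on the control arrays. Sleep fragmented replicate 3 lay above controls 1 and 2, so the groups overlapped, and the log2 fold change of -0.32 ± 0.22 was about as large as the SD within the groups (0.30 in sleep fragmented and 0.25 in control hearts, n = 3 each). Its dimmer probe (A_55_P2174541), well above background on 5 arrays, had relative signals of 0.145, 0.113 and 0.168 on the sleep fragmented arrays, against 0.161, 0.155 and 0.159 on the control arrays. There the sleep fragmented arrays lay on both sides of the controls (-0.17 ± 0.20). The brighter probe's value was -0.18 without sleep fragmented replicate 2 and -0.18 without control replicate 3, -0.14 with array weights, -0.085 with normexp background correction and -0.53 with median scaling.

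Parp12 and Parp10, which stand alone on chromosomes 6 and 15, had smaller differences. Parp12, a zinc finger PARP known to restrict alphaviruses (A_51_P214747), had relative signals of 0.562, 0.685 and 0.511 on the sleep fragmented arrays, against 0.811, 0.991 and 0.839 on the control arrays. It was 1.51-fold lower (-0.59 ± 0.20), just past the 1.5-fold mark, which it no longer met with normexp background correction (-0.39). Parp10, a mono-ADP-ribosyltransferase first found as a partner of human MYC (A_55_P2130970), had relative signals of 2.14, 2.13 and 1.85 on the sleep fragmented arrays, against 2.46, 3.16 and 2.54 on the control arrays. Its groups did not overlap, but at 1.33-fold (-0.41 ± 0.19) it stayed under the mark. With median scaling, which moved the median of all genes to -0.15, Parp10 stood at -0.62 and passed the mark.

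The genes beside the 7 on their chromosomes had values spread about that of all genes. Among the 3 protein-coding neighbours on each side, 17 other genes were measured, with a median log2 fold change of 0.06. Of these values 6 were negative, as were 40.6% of those of all named genes. In 1 of the 17, Phf11b, the groups did not overlap with the sleep fragmented arrays lower, which held for 3.95% of all named genes. Of the 17, 0 had an adjusted p under 0.05 by limma. After Phf11b the lowest was Sema5b, near Parp14, at -0.51 ± 0.23, a lower value than those of Parp10 and Dtx3l, and its groups overlapped. The highest was Smpd5, near Parp10, at 0.52 ± 0.25. Of the genes directly next to the 7, the importin gene Kpna1, beside Parp9, stood at -0.21 ± 0.18 and Rcbtb1, beside Phf11a, at -0.20 ± 0.21. Beside Parp12, Tbxas1 stood at 0.27 ± 0.20 and Kdm7a at 0.26 ± 0.31, and beside Parp10, Plec stood at 0.22 ± 0.26 and Grina at 0.35 ± 0.20. Neighbours were taken by their order in RefSeq (GRCm38.p6).

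**Figure D2:**
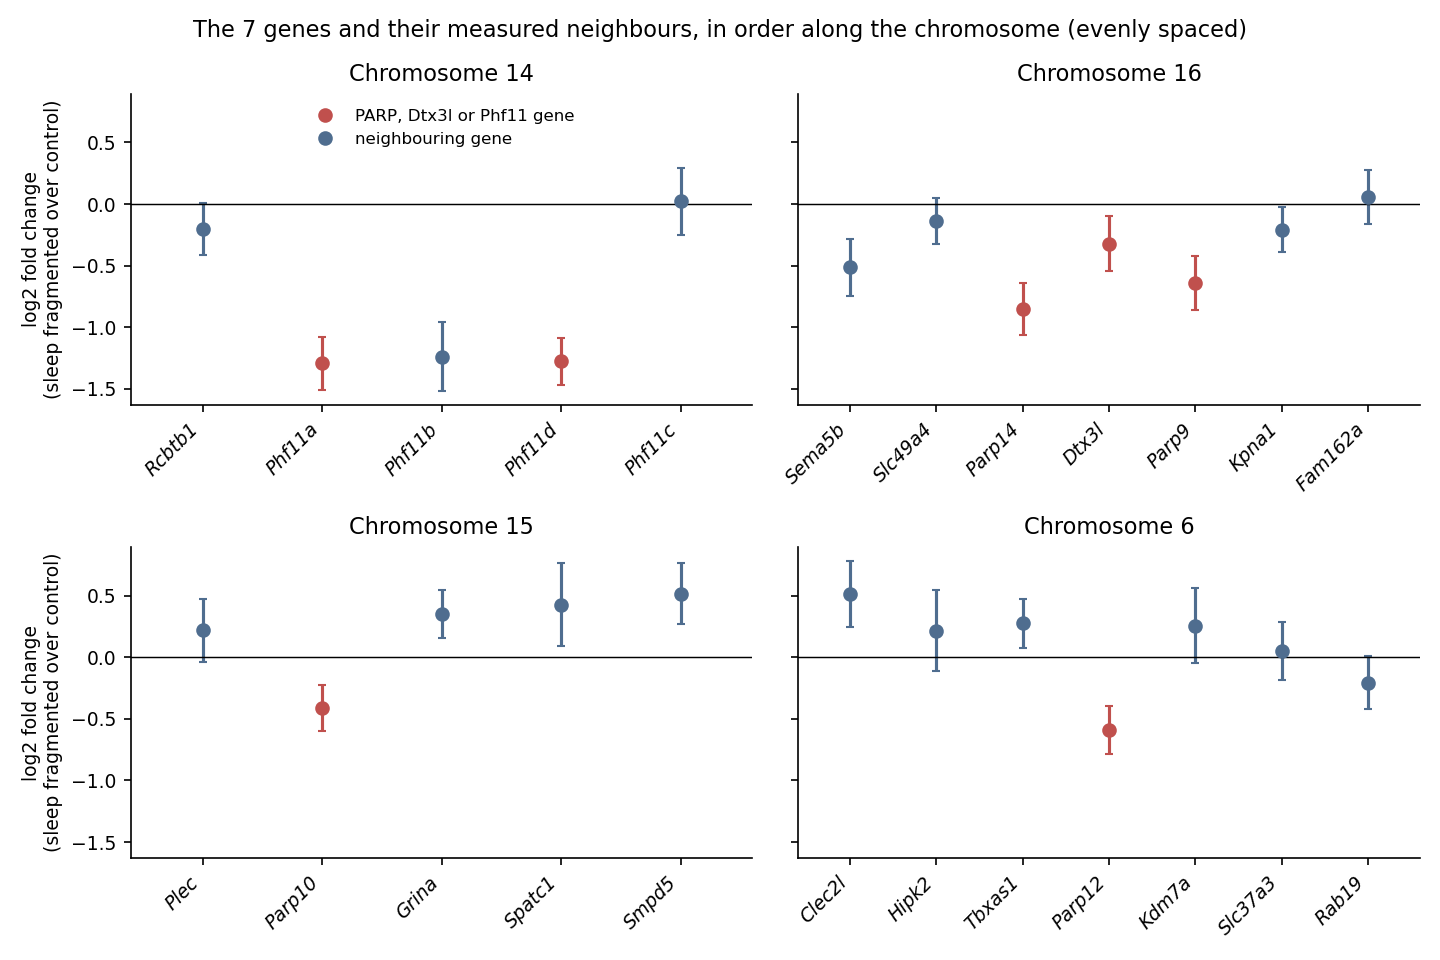
Log2 fold change, sleep fragmented over control, with moderated SE bars (n = 3 arrays per group), for the 7 genes (red) and their measured protein-coding neighbours (blue), in order along 4 chromosomes with even spacing. Phf11a, Phf11b and Phf11d lie near -1.29, -1.24 and -1.28, while Parp10 and Parp12 are the lowest of the genes drawn for their chromosomes.

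The rest of the PARP family had values spread about 0. The sign of such small values depends on the scaling, since the median of all genes is -0.15 with median scaling in place of 0.06. Of 12 other family genes 11 were measured, and 0 passed in either direction by limma over all probes. Their median log2 fold change was -0.03, with 7 negative values, where 40.6% of all named genes were negative. Zc3hav1, a catalytically inactive antiviral member of the family, had the smallest unadjusted p, 0.0442, and pointed the other way, with log2 relative signals of -1.54, -1.98 and -1.76 on the sleep fragmented arrays, against -2.50, -2.30 and -1.97 on the control arrays. Its log2 fold change was 0.50 ± 0.21 (adjusted p = 0.949 by limma), and the groups overlapped. Tiparp, a target of the aryl hydrocarbon receptor, stood at 0.31 ± 0.22 with no overlap between the groups, and the DNA damage enzymes Parp2 and Parp3 at -0.26 ± 0.24 and -0.19 ± 0.17.

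All 7 genes of the eraser list, named for enzymes that remove ADP-ribose, were measured and had negative values, as had 40.6% of all named genes. Their median was -0.12, and 0 of the 7 passed. Whether each listed gene encodes an active enzyme was not examined. The lowest was the macrodomain hydrolase gene Macrod2 (-0.57 ± 0.26), with log2 relative signals of -0.60, -0.60 and -0.45 on the sleep fragmented arrays, against 0.61, -0.20 and -0.34 on the control arrays, where control replicate 1 stood apart. Its groups did not overlap, and the value was close to that of Parp12. Adprhl1 (-0.25 ± 0.22), Oard1 (-0.24 ± 0.22) and Parg, which cleaves poly(ADP-ribose) chains (-0.12 ± 0.19), followed. Among the 6 measured Deltex and Phf11 relatives 0 passed and 2 were negative, where 40.6% of all named genes were negative. The Deltex ubiquitin ligase genes Dtx1 and Dtx3 had values of 0.34 ± 0.23 and 0.37 ± 0.27, opposite in sign to Dtx3l. Dtx2 had a value of -0.08 ± 0.18.

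Other interferon targets and part of the signalling genes had negative values too. Of 12 measured signalling genes 0 passed by limma over all probes, and 3 were at least 1.5-fold lower with an unadjusted p under 0.05, a call made for 0.708% of all named genes. These were Usp18, an Isg15 protease that dampens the type I receptor (-1.70 ± 0.25), Irf9 (-1.08 ± 0.21), which binds the response element, and its partner Stat2 (-0.95 ± 0.19). Irf1, an early interferon gamma target, had a value of -0.27 ± 0.19. The list's median was -0.09, against a median of 0.06 and a 25th percentile of -0.09 over all named genes. Of the 12 values 8 were negative, as were 40.6% of those of all named genes. Of 23 measured other interferon-stimulated genes 0 passed over all probes, 15 met the unadjusted call and 21 were negative, with a median of -0.78. The genes of this list with the smallest unadjusted p were the chaperone gene Rtp4 (-1.35 ± 0.23), the oligoadenylate synthetase family genes Oasl1 (-1.52 ± 0.26), Oas2 (-1.33 ± 0.24) and Oas1a (-1.40 ± 0.26). That interferon targets were lower here was known when these lists were drawn up, so their counts are no independent support.

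**Figure D3:**
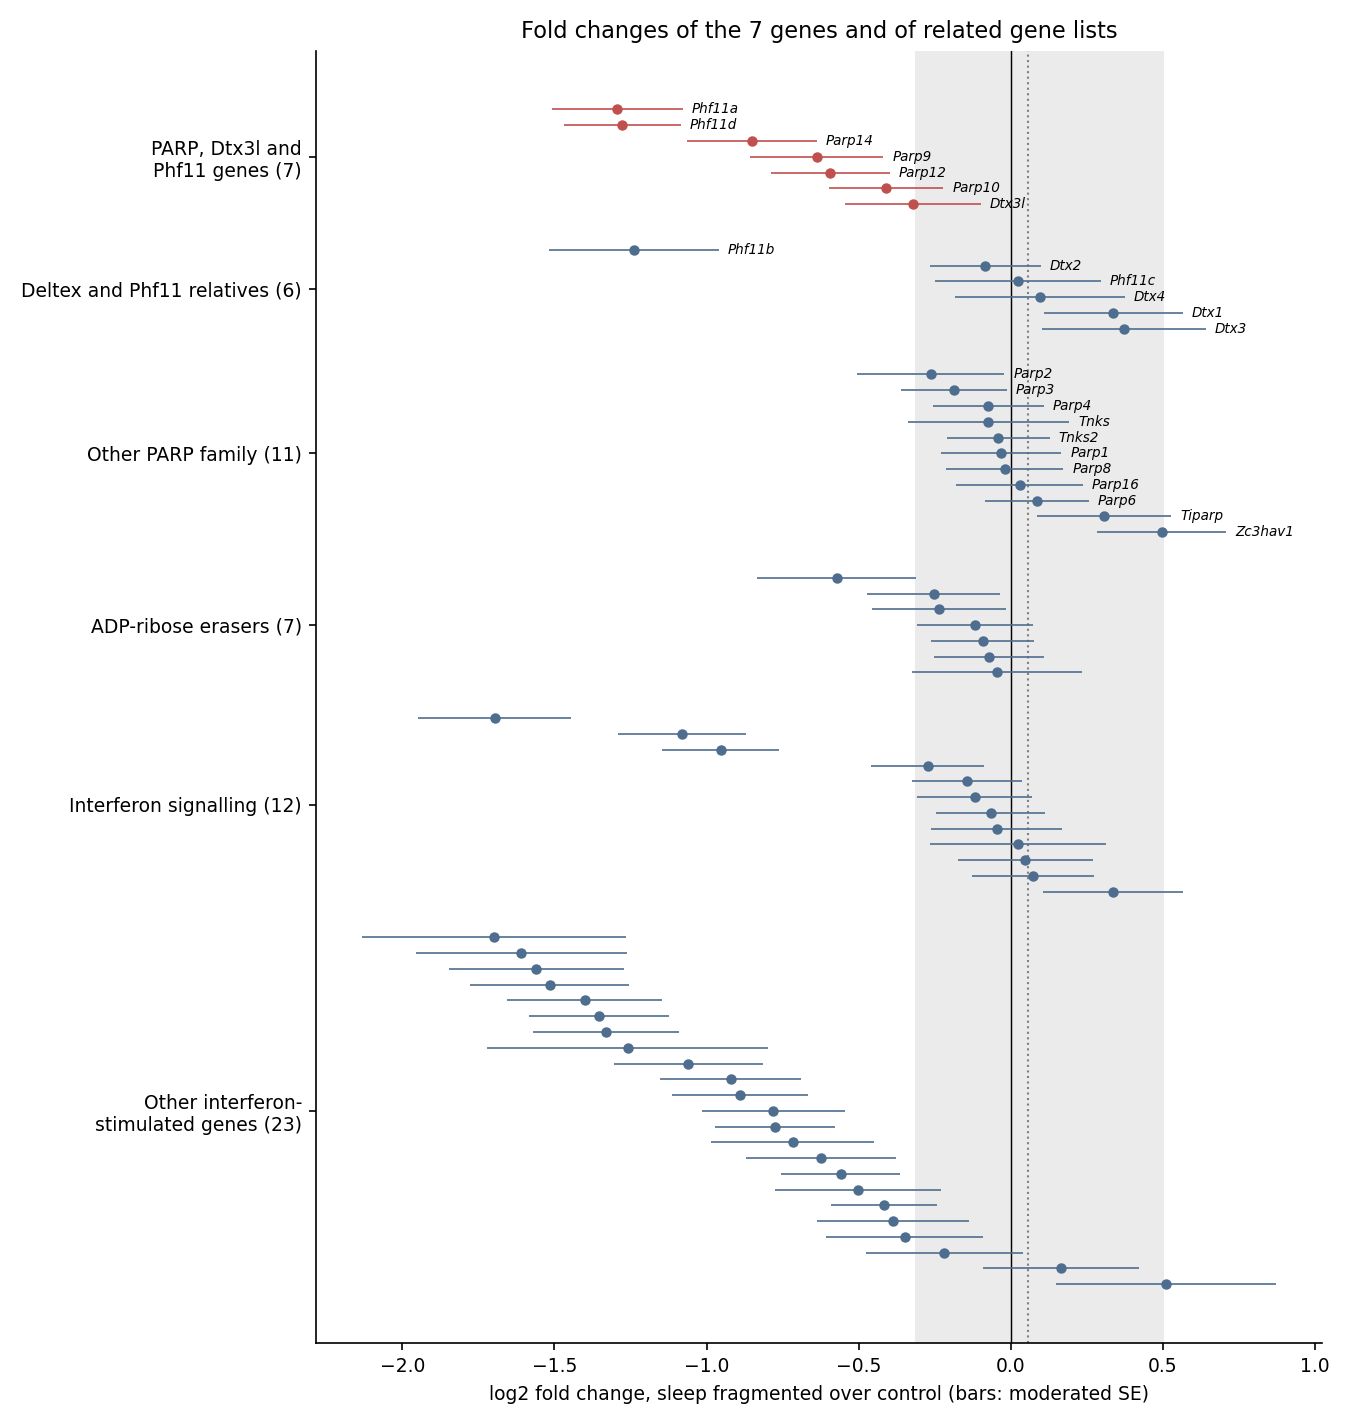
Log2 fold change, sleep fragmented over control, with moderated SE bars (n = 3 arrays per group), for the 7 genes (red) and 5 lists of related genes (blue), with the number of genes measured in parentheses. The grey band spans the 5th to 95th percentile of all named genes (-0.31 to 0.50) and the dotted line is their median, 0.06; all 7 genes lie below the band, Dtx3l just so (-0.32), and the other PARP genes lie between -0.26 and 0.50.

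Across the 6 arrays the mean level of the 7 genes was lower on each sleep fragmented array than on any control array. Relative to the control mean, the mean log2 level of the 7 was -0.75, -0.70 and -0.86 on the sleep fragmented arrays, against -0.20, 0.21 and -0.02 on the control arrays, a difference of -0.77 ± 0.13 (SE, n = 3 per group). A barcode entry in the file headers took 3 values, each shared by 1 array of each group, and within them the differences were -0.55, -0.91 and -0.85. Control replicate 2 was the highest of all arrays for 6 of the 7 genes, as it was for 13.4% of all named genes. Sleep fragmented replicate 3 was the lowest for the same count of 6. The share of all named genes lowest on that array was not computed, so nothing is read from this count. Without control replicate 2 the mean difference was -0.66. Pearson's r over the 6 arrays, a description that rests on the group difference too, lay between 0.90 and 0.99 for the pairs that leave out Dtx3l and between 0.28 and 0.59 for those with it. After group means were subtracted, r lay between 0.63 and 0.98 for the pairs that leave out Dtx3l, lowest between Parp14 and Phf11d, and between -0.64 and 0.14 for those with it.

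The genes whose level ran most like the mean of the 7 over these 6 arrays were ranked by Pearson's r among 14524 genes with no missing value. They were Igtp, an interferon gamma-induced GTPase (r = 0.999, log2 fold change -0.46), Stat2 (0.995), Irf9 (0.992), Rtp4 (0.991), Usp18 (0.989) and the guanylate-binding protein gene Gbp3 (0.988, log2 fold change -1.15). With 6 arrays and so many genes, high values of r arise in number, and they are given as a description.

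Markers of immune cells had values of both signs, where 40.6% of all named genes were negative. Of 8 macrophage markers 7 were measured, with 3 negative values and a summed relative signal of 12.1 to 22.4 in sleep fragmented and 12.7 to 16.7 in control hearts. Of 7 lymphocyte markers 6 were measured, with 4 negative values and sums of 1.77 to 2.26 in sleep fragmented and 1.6 to 7.93 in control hearts. The highest lymphocyte level was on control replicate 2, the array where 6 of the 7 genes were highest, with a list mean of 1.22 above the control mean on the log2 scale. The 4 markers listed for plasmacytoid dendritic cells, 1 of them the interferon-stimulated gene Bst2 (-0.72), had 3 negative values. Their sums were 25.6 to 30.3 in sleep fragmented and 24.5 to 30.0 in control hearts. The brightest probes weigh most in any such sum, here those of Siglech and Tcf4. The mean log2 level of these 4, relative to the control mean, was -0.10, -0.22 and -0.34 on the sleep fragmented arrays. On the control arrays it was -0.16, 0.30 and -0.14. Of the immune markers on the array, Ms4a1 was not kept and was well above background on 2 arrays. Sums were 29.0 to 37.9 in sleep fragmented and 34.9 to 43.5 in control hearts for 5 endothelial markers, and 82.0 to 124 in sleep fragmented and 77.5 to 86.2 in control hearts for 5 fibroblast markers. The 4 erythroid markers were higher on every sleep fragmented array, with sums of 157 to 385 in sleep fragmented and 100 to 113 in control hearts. The part of these cells in the lower level of the 7 genes was not tested, and in RNA of whole tissue fewer cells of a type and less RNA per cell cannot be told apart.

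**Figure D4:**
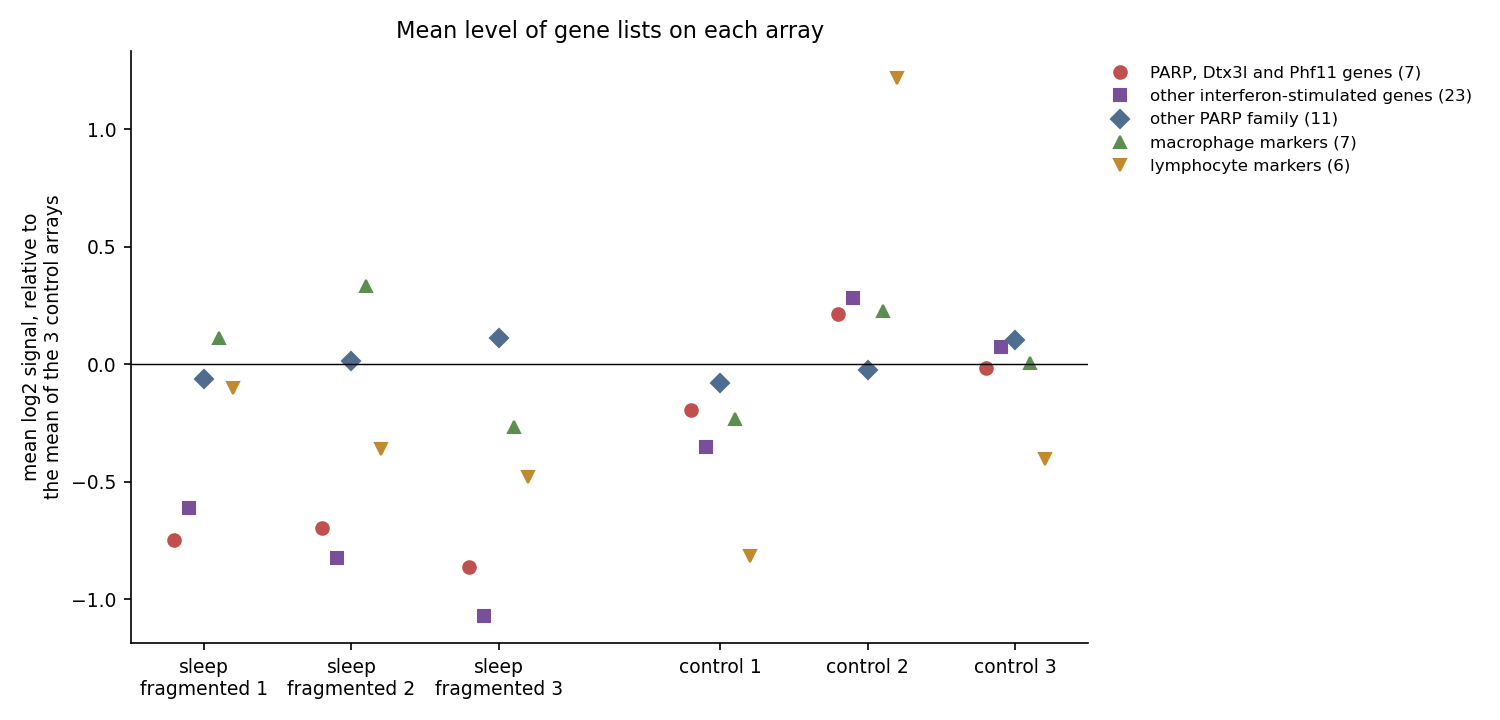
Mean log2 signal of the 7 genes and of 4 gene lists on each of the 6 arrays, relative to the mean of the 3 control arrays, with the number of genes in parentheses. The 7 genes and the other interferon-stimulated genes lie below 0 on all sleep fragmented arrays, the other PARP genes stay between -0.08 and 0.11, and the lymphocyte markers stand high on control replicate 2 (1.22).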

How the data were processed

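The authors deposited 1 scanner output per array of Agilent design 026655. Its intensity values include the processed signal, already corrected for background, per the file headers. These name Feature Extraction 11.0.1.1, and the submitters' notes on processing give 10.5.1.1. Deposited flags for background, saturation and outlying spots are other values, 0 or 1. The authors' deposited log2 table, of unstated normalization with column medians of 5.54 and no known centring, served as an alternative. It gave a mean log2 fold change of the 7 genes of -0.77, as quantile normalization did. These alternatives are therefore not separate checks.

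Control spots and spots marked as outliers (180 to 240 on each array) were dropped, log2 signals were averaged per probe, and each array's 75th percentile was subtracted. Of 39429 probes 25229 were kept; 27234 (69.1%) were named by RefSeq accession (GRCm38.p6), and a gene's brightest kept probe stood for it. None of the 8 probes had a missing or saturated value. Groups were compared with limma 3.58.1 in R 4.3.3 (two-sided tests). P-values were adjusted by Benjamini and Hochberg's method across the kept probes, with a threshold of 0.05. The number of arrays limits the precision. The 7 genes, the lists and the tests were chosen with earlier results of these data known. Named genes were the 7, up to 4 genes per related list with the smallest unadjusted p, and the 6 most alike in pattern. Marker lists covered macrophages, lymphocytes, plasmacytoid dendritic cells, cardiomyocytes, atrial, endothelial, fibroblast and erythroid cells. Promoters were aligned globally with free end gaps. Alternatives changed scaling, background, dim-probe filter, block, weights, prior, probe rule and arrays left out.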

Additional observations from a re-analysis of the deposited data

How the results depend on the processing

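All 112 values of single members under the 16 alternatives, 7 genes in each, were negative, but many of them could not differ from the main ones. The changes of dim-probe filter, block and prior left the fold changes of all 7 genes as they were. The mean of all kept probes changed only that of Dtx3l, and the authors' table nearly repeated quantile normalization. As the 7 genes were picked on this contrast, nothing is read from the count. The mean log2 fold change of the 7 genes was -0.98 with median scaling, under which the median of all genes moved to -0.15, against 0.06 with the 75th percentile; relative to that median it was -0.83 both times. Under the other alternatives it lay between -0.69 and -0.77, and with single arrays left out between -0.87 and -0.66. With normexp background correction Parp12 stood at -0.39, under the 1.5-fold mark, against -0.59 without it, and Dtx3l at -0.085, against -0.32. The count of genes at least 1.5-fold lower without overlap lay between 3 and 5 with single arrays left out, and between 4 and 6 otherwise. With normexp 3 probes passed the adjusted threshold, those of Rtp4, Oas2 and Phf11d, the last being one of the 7 genes and the other 2 listed genes. With the replicate block 4 probes passed (1 higher, 3 lower), 2 of them named (Ifi209 and Dppa2), and 0 were of the 7 genes or the lists. With single arrays left out 0 probes passed, and 463 to 2888 had an unadjusted p under 0.05. The numbers shared by the groups did not pair the arrays throughout (r of deviations 0.06, 0.55 and 0.21 for same-numbered arrays). The barcode entries in the file headers match these numbers, so a block on them is the same fit; whether they stand for slides is not known. The dim Dtx3l probes limit what its value can show.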

Other observations

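Within the groups, after each group's mean was subtracted, the genes that ran most like the mean of the 7 were 2310039H08Rik (r = 0.999), Igtp (0.999), Trim12a, a gene of the tripartite motif family (0.998), Atp6v0e (0.997), Snapc5 (0.997) and Slc39a6 (0.996), over 6 arrays and given as a description. Igtp was the 1 gene in both rankings, and its log2 fold change was -0.46, against -0.40 for Trim12a and -0.03 for Slc39a6.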
